A study of Mus musculus with 6 samples.

Results

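The genes described here are 10 peptide hormone genes of the pancreatic islet and the gut, out of 43432 gene IDs in the count table of mouse medullary thymic epithelial cells (mTEC). They were taken by symbol: Ins1, Ins2, Iapp, Gcg, Sst and Ppy of the islet, and Pyy, Gip, Ghrl and Cck of the gut. The rule names the genes and uses no measured value, but it was set with earlier results of these data known. RNA sequencing compared mTEC of C57BL/6 mice at 4 weeks of age carrying 1 allele with the E241K change in the COPI coat subunit gene Copa (CopaE241K/+, called MUT, 3 libraries) with mTEC of Copa+/+ mice (called WT, 3 libraries). The title of the series concerns STING activation and thymic type I interferon. The change is a single amino acid, so counts of Copa cannot check the genotype. The labels do not say whether a library came from 1 mouse or a pool, so p-values reflect only how much these libraries vary, which may be partly technical.

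Medullary thymic epithelial cells transcribe a large range of genes that otherwise belong to single peripheral tissues and show their products to developing T cells. The regulators Aire and Fezf2 are known to drive much of this ectopic transcription, and any one antigen is known to be made by a small minority of mTEC. Insulin is the best studied example: mouse has a pair of insulin genes, and thymic Ins2 is known to shape tolerance to the beta cell. In bulk libraries such as these, fewer cells making a hormone and less RNA per cell cannot be told apart.

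All 10 hormone genes had counts in at least 1 library, and 8 of the 10 had counts in all 6. Of the 21474 protein-coding genes in the table, 59.2% had counts in all 6 libraries. The exceptions were Ins1, with counts in 2 libraries, and Cck, with none in WT library 1. Nearly all insulin counts were those of Ins2: WT libraries 1, 2 and 3 held 1651, 268 and 374 Ins2 counts, and MUT libraries 1, 2 and 3 held 359, 230 and 162. Ins1 had 0, 0 and 4 counts in WT and 0, 0 and 26 in MUT. No hormone gene that could be tested differed between the genotypes beyond the spread of the libraries.

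The insulin genes are shown first, because reads of one could be counted for the other. Ins1 (ENSMUSG00000035804, chromosome 19, 52264297 to 52265476, plus strand) has 2 exons in its GENCODE M21 model on GRCm38. Ins2 (ENSMUSG00000000215, chromosome 7, 142678656 to 142743381, minus strand) has 3 exons in its transcript Ins2-201. Their coding sequences, from the GENCODE M21 transcripts Ins1-201 and Ins2-201, are given here over their first 300 bases from the start codon, and capitals mark bases that differ between them in a global alignment or have no partner in it.
Ins1: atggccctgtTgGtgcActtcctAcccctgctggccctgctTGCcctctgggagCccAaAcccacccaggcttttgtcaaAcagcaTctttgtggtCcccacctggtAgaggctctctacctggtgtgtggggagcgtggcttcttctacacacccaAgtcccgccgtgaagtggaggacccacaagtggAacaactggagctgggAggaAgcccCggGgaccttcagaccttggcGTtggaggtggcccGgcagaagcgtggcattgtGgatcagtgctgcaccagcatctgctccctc
Ins2: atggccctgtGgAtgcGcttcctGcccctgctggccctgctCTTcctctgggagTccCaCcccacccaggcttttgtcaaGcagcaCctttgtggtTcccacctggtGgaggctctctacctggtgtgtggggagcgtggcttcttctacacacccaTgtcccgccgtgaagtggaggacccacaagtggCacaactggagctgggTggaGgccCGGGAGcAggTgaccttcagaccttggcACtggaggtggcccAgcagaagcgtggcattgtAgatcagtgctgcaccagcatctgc
The coding sequences are 327 and 333 bases long. They matched at 302 of 333 aligned columns (90.7%), with 25 mismatches and 6 columns with a gap. The longest identical stretch was 56 bases. The sources used here do not name the counting program or its handling of reads that match both genes, so the separate values of Ins1 and Ins2 are uncertain to that extent. Every other pair of the 10 coding sequences matched at 52.7% of aligned columns or less: the neighbouring genes Ppy and Pyy, whose peptides belong to 1 family, matched at 52.5% of aligned columns, and Gcg and Gip, which also share a peptide family, at 50.3%.

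Ins2 counts exceeded Ins1 counts in every library. In the 4 libraries with no Ins1 count, Ins2 was 550.3-fold, 89.3-fold, 119.7-fold and 76.7-fold above 3 counts (WT 1, WT 2, MUT 1 and MUT 2). Here 3 counts per library were taken as the limit that a count of 0 allows. The exact binomial 95% intervals of the ratio in these libraries began lower, at 447, 72.2, 96.8 and 61.9. In WT library 3 the ratio was 93.5 (exact binomial 95% interval 36.2 to 345), and in MUT library 3 it was 6.23 (4.10 to 9.83). MUT library 3 thus held most of the Ins1 counts of the series. That library also had the most genes with a count, 24774, against 17174 to 21755 in the other 5. These intervals and limits cover counting error only, since amplified reads without molecular identifiers are not independent molecules. The fold values compare raw counts, and the Ins1 model is the longer (1062 against 478 bases), so a ratio per length would be larger.

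The core promoters are shown because 9 of the 10 genes have an entry in the RefSeq promoter table (GRCm38.p6), Ins2 being the gene not listed there. The 60 bases before the start site were searched for the letters TATAA, the core of the TATA box, a motif chosen after the sequences were seen. It was found on the gene's strand in 5 of the 9 (55.6%), against 5.57% of all 32851 promoters in the table; on either strand the shares were 55.6% and 7.24%. The stricter letters TATAAA, which contain it, were found in 2 of the 9 and in 2.87% of all. Capitals mark the match.
Ppy (chr11:102101320-102101379, minus strand): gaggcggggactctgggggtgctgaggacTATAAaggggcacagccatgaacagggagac
Pyy (chr11:102107833-102107892, minus strand): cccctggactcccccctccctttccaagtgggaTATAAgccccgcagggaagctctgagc
Gcg (chr2:62483654-62483713, minus strand): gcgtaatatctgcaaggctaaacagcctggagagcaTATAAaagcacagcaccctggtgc
Iapp (chr6:142298365-142298424, plus strand): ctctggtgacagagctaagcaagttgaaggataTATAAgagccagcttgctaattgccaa
Gip (chr11:96024485-96024544, plus strand): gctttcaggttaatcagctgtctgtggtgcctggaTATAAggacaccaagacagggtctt
No TATAA was in the windows of Ins1, Sst, Ghrl and Cck, which says only that these letters are not there. The median number of CG dinucleotides in the full 300 bases was 4 for the 9 genes and 7 for all promoters.

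Levels of different genes are compared as CPM (counts scaled to a common library size, with TMM factors) per kilobase of the principal transcript. All counts of a gene were divided by this 1 length. Ins2 has 9 annotated transcripts, and its length here, 478 bases, is that of Ins2-201 alone, so its level per kb depends on that choice. Sst, the gene of somatostatin, which inhibits the release of other hormones, had the highest mean level over the 6 libraries, 86.6 ± 59.3 CPM per kb (SD, n = 6). Cck (68.5 ± 62.3), Pyy (62.0 ± 32.3), Iapp (60.8 ± 51.4) and Ins2 (55.0 ± 70.8) followed. The order among these 5 genes was not stable, since Sst lay above Cck in 3 of 6 libraries, Pyy above Iapp in 3 and Iapp above Ins2 in 3. Gcg (29.1 ± 13.4), Gip (28.8 ± 13.8), Ghrl (22.8 ± 14.7) and Ppy (18.6 ± 19.1 CPM per kb) were lower on average, and neighbours among them also changed places from library to library. Ins1, at 0.18 ± 0.35 CPM per kb, lay below Ppy in 6 of 6 libraries. On the same scale Aire averaged 653.5 and Fezf2 274.5 CPM per kb. Among protein-coding genes in the table, the mean level per kb of the 9 genes other than Ins1 ranked between percentiles 82.95 (Ppy) and 97.3 (Sst), and Ins1 at percentile 21.5.

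**Figure D1:**
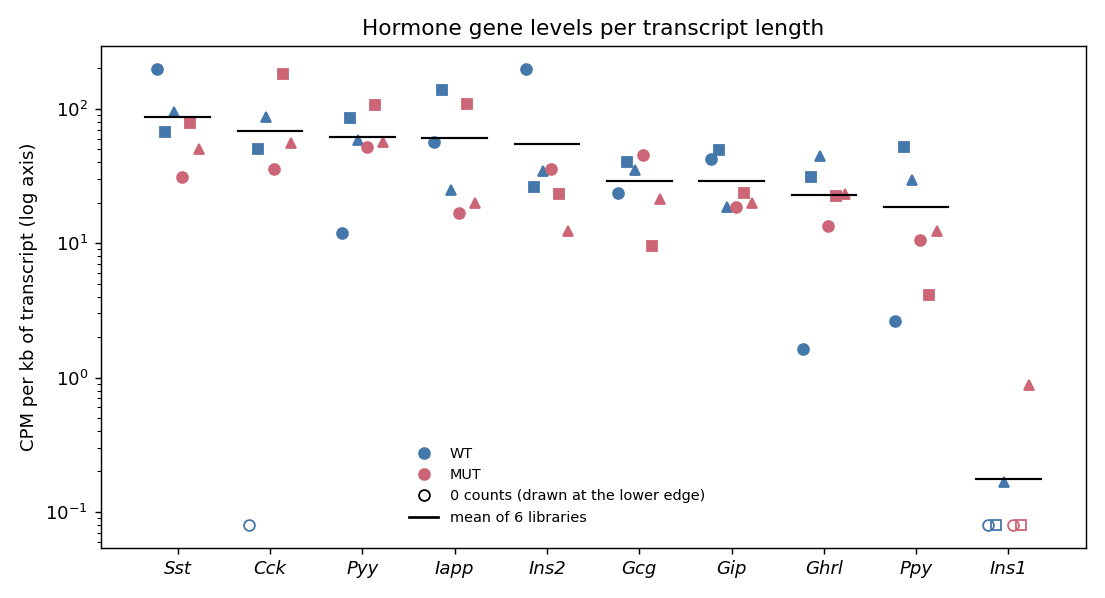
Levels of the 10 hormone genes in CPM per kb of transcript (log axis), ordered by their mean (black line). Points are libraries, WT blue and MUT red, with circle, square and triangle for libraries 1, 2 and 3; open symbols at the lower edge are libraries with 0 counts (Cck in WT 1, Ins1 in 4 libraries). The 9 genes from Sst to Ppy spread over each other, and Ins1 sits apart below them.

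Depth and cell content of the libraries were as follows. Totals ran from 19934513 to 23366238 counts. WT library 1 had the fewest genes with a count, 17174. Markers of mTEC were present in every library, with Aire at 954 to 1379 CPM in WT and 929 to 1563 CPM in MUT; of 12 mTEC markers only Ccl21a was at or near 0 (0 to 4 counts). Summed thymocyte markers (11 genes) ranged from 253 to 630 CPM in WT and from 145 to 1106 CPM in MUT, and summed myeloid markers (8 genes) from 595 to 1090 and from 520 to 965 CPM, and of these 19 genes only Rag2 and Ptcra were at 0 in some libraries. Summed markers of cortical epithelium (5 genes) ranged from 318 to 525 CPM in WT and from 364 to 634 CPM in MUT. Those of B cells (5 genes) ranged from 110 to 143 and from 53.0 to 126 CPM. Fibroblast markers (6 genes) summed to 102 to 136 and 79.0 to 143 CPM, and endothelium markers (4 genes) to 14.6 to 74.5 and 24.6 to 57.8 CPM. Markers of the parathyroid, an endocrine gland that can lie in or beside the thymus, were also counted. The parathyroid hormone gene Pth had 3969, 4513 and 1972 counts in WT libraries 1, 2 and 3, and 12394, 2074 and 387 in MUT. Casr, the calcium receptor of that gland, had 144, 519 and 544 counts in WT and 1614, 1156 and 1211 in MUT, without overlap. Its log2 fold change was 1.63 (SE 0.64, edgeR adjusted p 0.999875), and 5.39% of all tested genes had all MUT libraries above all WT libraries. The parathyroid regulator Gcm2 had 0 to 19 counts in WT and 9 to 73 in MUT. Because mTEC transcribe genes of other tissues, parathyroid cells and mTEC cannot be told apart here as the source of these 3 genes' counts. The part of any other cells in the hormone gene values was not tested.

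Between the genotypes, edgeR's quasi-likelihood test with Benjamini-Hochberg adjustment over 17172 tested genes called 0 of the 9 hormone genes that passed the filter on low counts, where 0% of all tested genes were called. At an unadjusted p under 0.05 there were 0 of these 9, against 3.48% of all tested genes. DESeq2 called 0 hormone genes and 0.629% of all genes, and edgeR without the filter 0 hormone genes and 0.253% of all. Unadjusted p-values under 0.05 were given by edgeR without the filter for Ins2 (0.030) and Sst (0.039) and by DESeq2 for Ins2 (0.047). With 1 library left out, edgeR gave them for Ins2 (0.022 without WT library 2, 0.039 without WT library 3), Sst (0.028 without WT library 2, 0.034 without MUT library 2) and Iapp (0.032 without MUT library 2). Over all genes, such p-values went to 1654 of 28820 without the filter and to 1640 of 18448 with DESeq2. The counts were 819 of 18696 without WT library 2, 1089 of 18446 without WT library 3 and 575 of 18623 without MUT library 2. In the main edgeR test with the filter, the adjusted p was 0.999875 for each of the 9. In 0 of the 9 did the libraries of the genotypes fail to overlap, against 9.35% of all tested genes (5.39% with all MUT libraries higher and 3.96% with all lower). Fitted log2 fold changes (MUT minus WT) lay below 0 for 7 of the 9, against 50.6% of all tested genes, and their median was -0.60 beside -0.01 for all. Ins1 did not pass the filter and is given by its counts only.

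**Figure D2:**
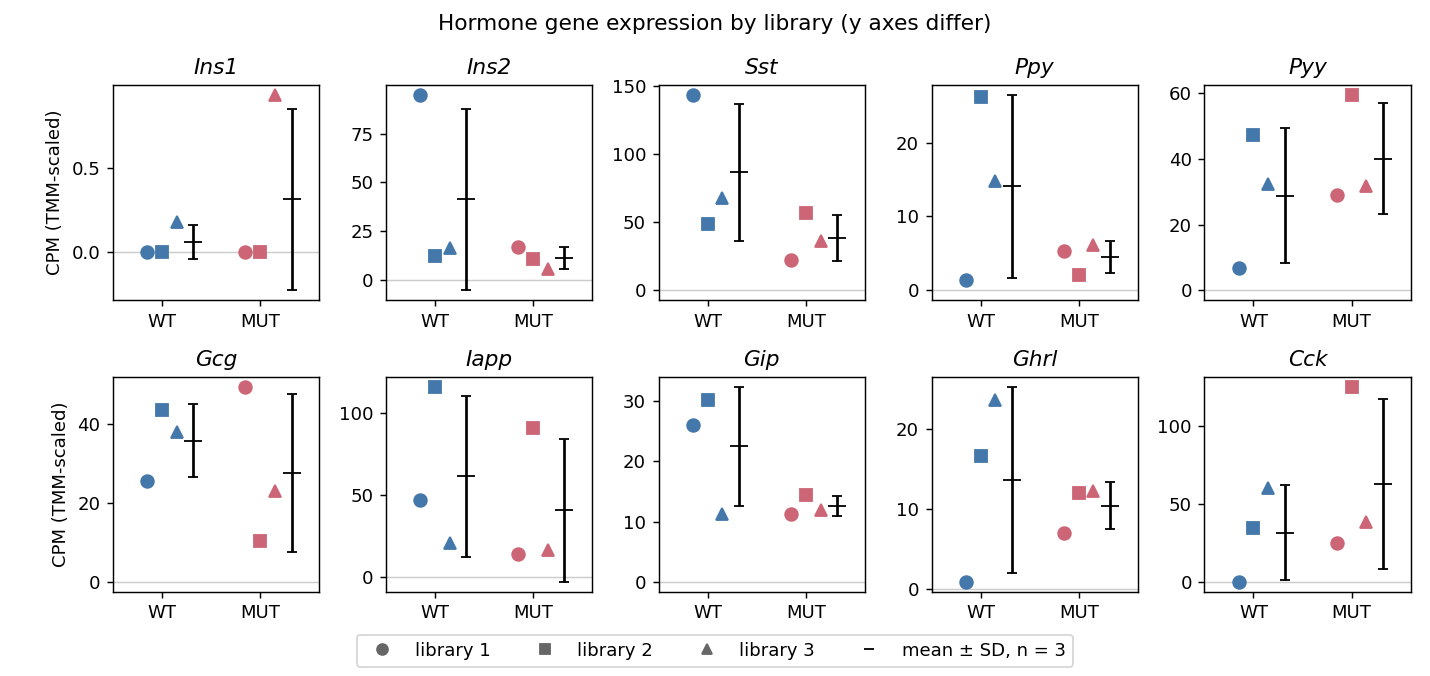
CPM (TMM-scaled) of each hormone gene in the 3 WT (blue) and 3 MUT (red) libraries, with circle, square and triangle for libraries 1, 2 and 3, and mean ± SD beside them. The y axes differ between genes. WT and MUT points overlap in every panel, and WT library 1 is the highest point for Ins2 and Sst and the lowest for Pyy, Ppy, Ghrl and Cck.

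Beta cell hormones came first. Ins2 measured 94.9, 12.6 and 16.5 CPM in WT libraries 1, 2 and 3, and 16.9, 11.02 and 5.85 CPM in MUT libraries 1, 2 and 3. WT library 1 stood far above the other 5, and the genotypes overlapped. The mean was 41.3 ± 46.4 CPM in WT and 11.3 ± 5.54 CPM in MUT (SD, n = 3 each). The fitted log2 fold change was -1.87 (SE 0.91, 95% interval -3.85 to 0.10), and without WT library 1 it was -0.37. Iapp encodes amylin, the peptide that beta cells release with insulin. It measured 47.2, 116 and 20.9 CPM in WT and 14.1, 91.0 and 16.7 CPM in MUT, with library 2 the highest in both genotypes. Source names of the WT and MUT libraries of equal number end alike, and within these 3 pairs the MUT library was the lower for both Iapp and Ins2. That held for 2 of the 9 tested hormone genes (22.2%) and 11.3% of all tested genes, and with the pair as a block the edgeR adjusted p was 0.999964 for both. Its log2 fold change was -0.60 (SE 0.82, interval -2.38 to 1.18) and 0.25 without WT library 2. The Iapp gene (chromosome 6, 142298423 to 142303961) lies within the span of Slco1a5 on the opposite strand, and whether counting used strand is not given in the sources. Slco1a5 had 1244, 167 and 1369 counts in WT and 324, 267 and 1123 in MUT, so the library with the most Iapp counts, WT 2, had the fewest of Slco1a5.

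Glucagon, somatostatin and pancreatic polypeptide are the products of the alpha, delta and PP cells of the islet. Gcg, which also encodes the gut peptide GLP-1, measured 25.6, 43.7 and 38.0 CPM in WT libraries 1, 2 and 3, and 49.5, 10.4 and 23.1 CPM in MUT. Both the highest and the lowest value were in MUT, and the log2 fold change was -0.37 (SE 0.71, interval -1.91 to 1.17), with 0.018 without MUT library 2. Sst measured 144, 48.3 and 67.9 CPM in WT and 22.5, 56.5 and 36.2 CPM in MUT. MUT library 2 lay above WT library 2, so the groups overlapped by 1 library on each side. Means were 86.6 ± 50.3 and 38.4 ± 17.1 CPM, and the log2 fold change was -1.17 (SE 0.57, interval -2.42 to 0.07), or -0.60 without WT library 1. Ppy measured 1.32, 26.1 and 14.8 CPM in WT and 5.28, 2.06 and 6.18 CPM in MUT. Here WT library 1 was the lowest of the 6, and the log2 fold change was -1.64 (SE 1.28, interval -4.43 to 1.15). The value was -0.85 without WT library 2, the highest, and -2.18 without WT library 1.

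Among the gut hormones, Pyy, whose product peptide YY lowers appetite after a meal, measured 6.66, 47.4 and 32.3 CPM in WT libraries 1, 2 and 3, and 29.1, 59.5 and 31.7 CPM in MUT. Its log2 fold change was 0.48 (SE 0.75, interval -1.15 to 2.11) and 0.01 when WT library 1, the lowest, was left out. Gip, the gene of the incretin of K cells, measured 25.9, 30.1 and 11.3 CPM in WT and 11.2, 14.4 and 12.0 CPM in MUT. The MUT libraries lay within 1.28-fold of each other and WT library 3 among them, with a log2 fold change of -0.84 (SE 0.82, interval -2.63 to 0.95). Ghrl encodes ghrelin, the hunger hormone of the stomach. It measured 0.86, 16.5 and 23.5 CPM in WT and 7.03, 11.9 and 12.2 CPM in MUT, and WT held both the lowest and the highest value, 27.3-fold apart. The log2 fold change was -0.39 (SE 1.16, interval -2.93 to 2.15), and 0.26 without WT library 3. An antisense gene, Gm26982, overlaps Ghrl and had 0 to 162 counts.

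Cck, the gene of cholecystokinin, which triggers gallbladder emptying, had the highest fitted biological coefficient of variation of the 9 tested genes, 1.08. It measured 0, 34.9 and 60.5 CPM in WT libraries 1, 2 and 3, and 24.8, 125 and 38.6 CPM in MUT. The 0 in WT library 1 allows up to 3 counts, or 0.17 CPM. MUT library 2 was the highest of all, and the log2 fold change was 0.98 (SE 1.32, interval -1.90 to 3.87), or -0.017 without that library. For these 9 genes the 95% intervals all included 0, and each also included at least a doubling or a halving, so they do not show that the genotypes were alike.

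**Figure D3:**
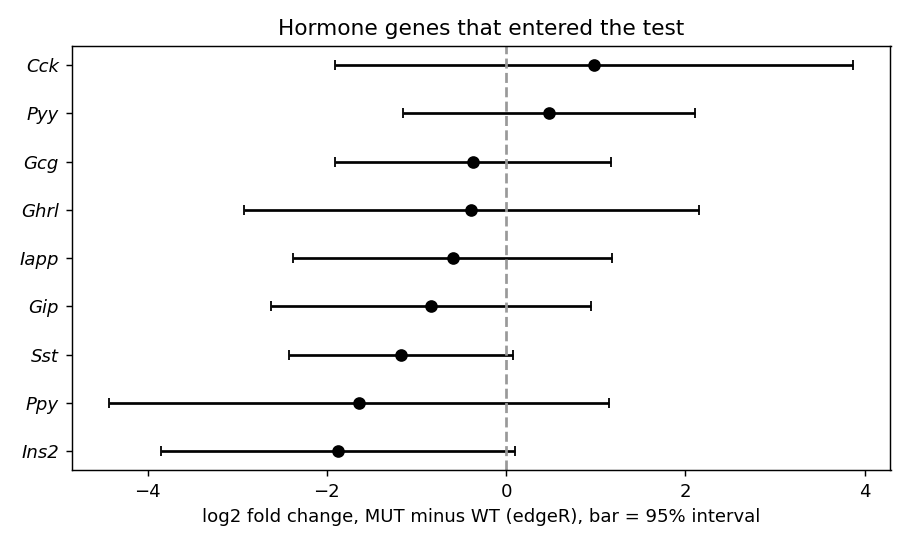
Fitted log2 fold changes (MUT minus WT) of the 9 hormone genes that entered edgeR's test, with 95% intervals as bars; the dashed line marks no difference. All bars cross the line, from Ins2 at -1.87 to Cck at 0.98.

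The mixture of hormones changed from library to library. Summed over the 10 genes, WT libraries 1, 2 and 3 held 346, 376 and 286 CPM, and MUT libraries 1, 2 and 3 held 180.4, 382 and 183 CPM, so the genotypes overlapped through MUT library 2. The gene with the largest share of these counts was Sst in WT libraries 1 (41.5%) and 3 (23.7%), Iapp in WT library 2 (30.9%), Gcg in MUT library 1 (27.4%) and Cck in MUT libraries 2 (32.8%) and 3 (21.02%). Ins2 made up 27.4% of the hormone counts in WT library 1 and from 2.88% to 9.39% in the other 5. Within 1 genotype the highest library exceeded the lowest by 19.8-fold for Ppy and 7.52-fold for Ins2 in WT, and by 6.45-fold for Iapp and 4.76-fold for Gcg in MUT. The fitted biological coefficient of variation of the 9 tested genes ran from 0.53 (Sst) to 1.08 (Cck). Its median over the 7389 tested genes in the same range of mean CPM (9.29 to 62.5) was 0.75, and 5 of the 9 lay between 0.65 and 0.77.

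**Figure D4:**
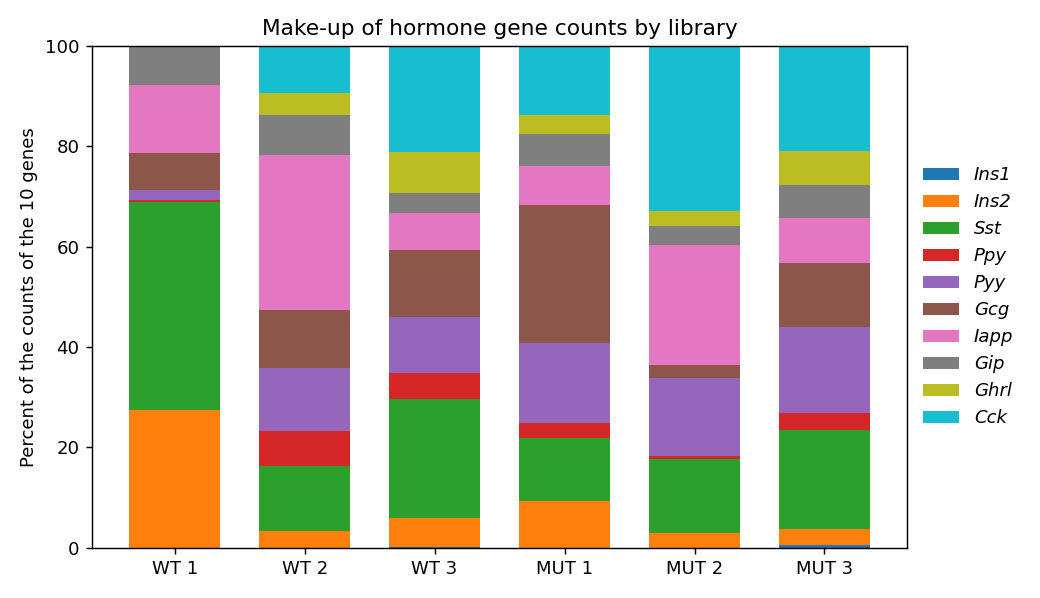
Percent of the summed counts of the 10 hormone genes that each gene took, by library. Sst and Ins2 fill most of the bar of WT 1, where Cck is at 0, and Cck is the largest segment in MUT 2 and MUT 3.

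Position on the chromosome was not used to choose the genes. Ppy and Pyy lie 5.36 kb apart on chromosome 11 (Ppy 102099930 to 102101319, Pyy 102106676 to 102107832, both on the minus strand), and in WT their counts had the same order. WT libraries 1, 2 and 3 held 23, 555 and 336 Ppy counts and 116, 1006 and 734 Pyy counts. MUT libraries 1, 2 and 3 held 112, 43 and 171 Ppy counts and 616, 1243 and 876 Pyy counts, so MUT library 2 had the fewest of Ppy and the most of Pyy within its genotype. Within 50 kb of the principal transcripts of the 10 genes lay 21 protein-coding genes with a row in the table, Ppy and Pyy included as neighbours of each other, and 17 of these had counts in all 6 libraries. Beside Sst, the olfactory receptor transporter gene Rtp2 (34.6 kb away) had 0 to 3 counts per library, while Sst had 476 to 2498. Igf2, the imprinted growth factor gene 11.8 kb from Ins2, had 2201, 2771 and 3685 counts in WT and 859, 780 and 1621 in MUT. The Igf2 libraries did not overlap between genotypes, where 3.96% of all tested genes had all MUT libraries below all WT libraries. The log2 fold change of Igf2 was -1.62 (SE 0.42, edgeR adjusted p 0.999875), and its highest WT library was WT 3, not WT 1 as for Ins2.

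The genes most like Sst over the 6 libraries, by Pearson's r of log2 CPM, were Nell2 (0.99), Chordc1 (0.99), D730001G18Rik (0.98), Ccer2 (0.98) and Arpp21 (0.98). With 17171 genes compared over 6 libraries that share their depth and cell content, 46 had an r over 0.95, so this is a description only.

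Regulators of the islet and gut endocrine lineage were compared with the hormones they are known to control in those tissues. Pdx1, the master regulator of pancreas and insulin transcription, had 0 counts in 5 libraries and 16 in MUT library 3. Nkx6-1, a beta cell factor, had 0 to 5 counts, and Neurod1, a factor of endocrine differentiation, had 0 to 21. Other factors were counted in every library, with 236 to 611 counts for Isl1 and 130 to 937 for Rfx6. Of the 16 listed factors, 6 had counts in all 6 libraries. Ins2 and Gcg had at least 162 and 217 counts in every library. Insm1, a zinc finger factor of endocrine cells, averaged 51.7 ± 33.0 CPM over WT and 60.1 ± 32.1 over MUT libraries. Hhex, needed by delta cells, had 0, 24 and 31 counts in WT and 113, 9 and 140 in MUT. Of 16 listed factors 10 were tested and 0 were called in either direction, with 5 fitted values above 0 and a median of 0.11.

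Hormone precursors are cut by convertases and stored in granules with granins. The convertase gene Pcsk1 had 11 to 983 counts and Pcsk2 had 1 to 150. Chromogranin A (Chga) averaged 113 ± 74.2 CPM over WT and 133 ± 167 over MUT libraries, with 6884 counts in MUT library 1, the library that also had the most Pth. Pam, the enzyme that amidates peptides such as amylin and peptide YY, measured 129 ± 54.9 and 122.9 ± 21.7 CPM. Chromogranin B (Chgb) averaged 61.9 ± 25.9 CPM over WT and 19.9 ± 7.79 over MUT libraries without overlap, where 3.96% of all tested genes had all MUT libraries below all WT libraries. Its log2 fold change was -1.63 (SE 0.61, edgeR adjusted p 0.999875). Of 11 listed genes 10 were tested, 0 were called, and 6 had fitted values above 0.

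Other islet autoantigens and other peptides of gut and neuroendocrine cells were measured in the same libraries. The zinc transporter gene Slc30a8 had 5 counts in WT library 3 and 0 in the other 5, and G6pc2, an islet glucose phosphatase, had 0, 0 and 120 counts in WT and 0, 23 and 1 in MUT. Ptprn, which encodes IA-2, measured 15.2 ± 17.2 and 9.37 ± 4.98 CPM, and its relative Ptprn2 17.6 ± 8.08 and 23.5 ± 10.5 CPM. Gad2, a glutamate decarboxylase gene, had 0, 2 and 103 counts in WT and 0, 520 and 229 in MUT. Gad1, the other glutamate decarboxylase gene listed, had 177, 115 and 416 counts in WT and 124, 151 and 494 in MUT. Of 8 listed autoantigen genes 6 were tested and 0 called, with a median log2 fold change of 0.05. Among the other peptides Calcb and Calca, of the calcitonin gene-related peptide family to which amylin belongs, were the highest, at 297 ± 112 and 256 ± 81.1 CPM, and 144 ± 29.6 and 65.4 ± 23.4 CPM. The Calca libraries did not overlap, where 3.96% of all tested genes had all MUT libraries below all WT libraries. The log2 fold change of Calca, the smallest p of its list, was -1.14 (SE 0.43, edgeR adjusted p 0.999875). Of 16 listed peptides 14 were tested, 0 were called, 10 had fitted values below 0, and the median was -0.33.

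**Figure D5:**
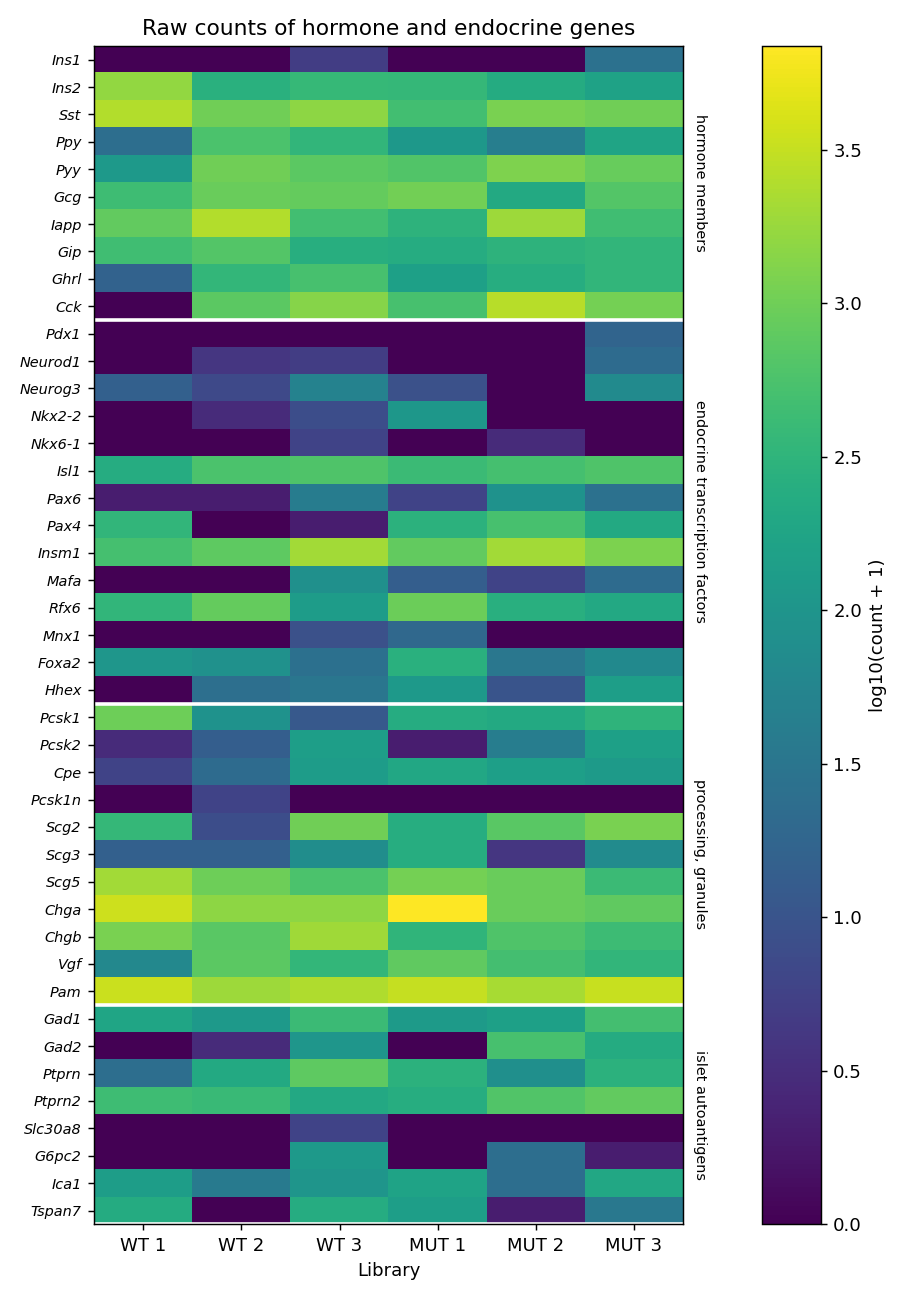
Raw counts, as log10(count + 1), of the 10 hormone genes, endocrine transcription factors, 11 processing and granule genes and 8 autoantigen genes (rows) in each library (columns); rows are not scaled for gene length. Pdx1, Nkx6-1, Pcsk1n and Slc30a8 are dark in most libraries, while the hormone rows other than Ins1 are bright in nearly all.

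Aire and Fezf2, on which ectopic transcription in mTEC is known to depend, did not differ beyond the spread of the libraries. Aire averaged 1231 ± 240 CPM in the WT libraries and 1302 ± 332 in the MUT libraries, a log2 difference of 0.08 (SE 0.29), and Fezf2 averaged 685 ± 184 and 516 ± 124 CPM, a log2 difference of -0.41 (SE 0.31). Of 8 listed regulators all were tested and 0 were called. The ratio of the highest to the lowest library was 1.68 for Aire, 1.96 for Fezf2 and 8.69 for Deaf1, the highest of these 8. Over the 8 hormone genes with counts in all 6 libraries it ran from 2.68 (Gip) to 27.3 (Ghrl). The comparison was not matched for level. Mean CPM was 1266 for Aire and 601 for Fezf2, but 9.29 (Ppy) to 62.5 (Sst) for these hormone genes.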

How the data were processed

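The authors deposited unnormalized read counts by Ensembl gene for the 3 WT and 3 MUT libraries. Per the labels' protocols, column-purified total RNA was amplified with Nugen Ovation and made into libraries with Nextera XT. GRCm38, STAR 2.4.2a and DESeq2 1.26.0 are listed, per the submitters' processing notes, with no role stated. How reads were assigned to genes, and with which annotation and strand option, is not given in the sources used here. All rows carried a gene ID and every column was used. Symbols were matched for 42462 of 43432 IDs.

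Counts were tested with edgeR 4.0.16 (R 4.3.3): the robust quasi-likelihood test after filterByExpr and TMM scaling, genotype as the only term, Benjamini-Hochberg adjustment over 17172 genes and a threshold of 0.05. CPM were computed on the TMM-scaled totals of the tested genes. The 95% interval of a log2 fold change used its SE and the test's degrees of freedom. Loci, transcript lengths and coding sequences came from GENCODE M21 and promoters from RefSeq. The fit was repeated with upper-quartile scaling, with DESeq2 size factors, with a term for the replicate number, no filter, a stricter filter (minimum count 50), DESeq2 1.42.0, limma-voom (limma 3.58.1), a threshold of 0.1 and each library left out. The fit was tested on simulated data, with a pass condition only for large changes at a low dispersion. The common biological coefficient of variation of these libraries was far higher, 1.01, so that test does not show how well changes are found here.

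The 10 genes and the gene lists were chosen with earlier results of these data known. Named beside the 10 were, per list, the 2 tested genes with the highest mean CPM and the 1 with the smallest p, and the 5 genes most like the highest hormone gene. Igf2 was named as a neighbour of Ins2 and not by this rule. Chosen after their values were seen were Pdx1, Nkx6-1, Neurod1, Isl1, Rfx6, Pcsk1, Pcsk2, Slc30a8, G6pc2, Gad1, Amy2a5 and Deaf1. Some genes of the lists, 1 of which the rule would name, are not reported here.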

Additional observations from a re-analysis of the deposited data

How the results depend on the processing

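No hormone gene was called under any alternative run, and 0 genes of the other 7 lists were either. Over all genes the count of 0 became 1 with the replicate block, 73 without a filter on low counts and 116 with DESeq2; it was 0 with any 1 library left out (range 0 to 0). Source names of WT and MUT libraries of equal number share an ending, but what the ending stands for is not in the labels. Deviations from the group means correlated at 0.10, 0.06 and 0.13 between libraries of equal number, and 6 of 6 libraries correlated best with their own number. Deviations sum to 0 over the 3 libraries of a genotype, so these 6 matches are tied to each other and are not separate observations. With the replicate block the log2 fold change of Cck was 2.31 and that of Ins2 -1.40, and limma-voom gave 3.23 and -1.35, none of them called. Directions reversed for Ghrl (0.38 with the block, 0.34 with limma-voom), Chga (-0.42 and -0.44) and Glp2r (0.015 and 0.036), and for Pam (0.029 with upper-quartile scaling, 0.018 with limma-voom). The cause was not tested. With 1 library left out, the log2 fold change ran from -2.31 to -0.37 for Ins2, from -1.58 to -0.60 for Sst, from -2.18 to -0.85 for Ppy, from 0.01 to 1.03 for Pyy and from -1.16 to -0.58 for Gip. It changed sign for Gcg (-1.10 to 0.018), Iapp (-1.998 to 0.25), Ghrl (-0.95 to 0.26), Cck (-0.017 to 1.85), Insm1 (-0.32 to 0.87), Pam (-0.29 to 0.32), Chga (-1.63 to 0.93), Ptprn (-1.25 to 0.74), Calcb (-0.45 to 0.12), Glp2r (-0.65 to 0.39), Aire (-0.085 to 0.27) and Clps (-1.12 to 2.52). At a minimum of 10 counts the number of hormone genes detected per library stayed within 8 to 10. Over raw totals their summed CPM was 295, 349 and 326 in WT libraries 1, 2 and 3 and 180.2, 349 and 217 in MUT; leaving out Sst gave 202, 327 and 218 for the WT libraries, 158, 326 and 147 for the MUT libraries. With 3 libraries per genotype, the intervals of single genes leave changes of several-fold undetectable.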

Other observations

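Of 21 listed receptor genes of these hormones and their partners, 15 had counts in at least 4 libraries and 3 in all 6. Of the 21, 15 were tested and 0 were called. Fitted values lay below 0 for 11 of the 15, against 50.6% of all tested genes. The median log2 fold change was -1.30, against -0.01 for all. Most of these receptors had 0 counts in some library. Their median biological coefficient of variation was 1.52, against 0.88 over all tested genes, so their fold changes are uncertain. The insulin receptor gene Insr was the highest, with a mean of 217 ± 68.1 CPM over the WT and 185 ± 56.3 over the MUT libraries (n = 3 each), and Glp2r, the receptor of the Gcg product GLP-2, averaged 16.97 ± 12.2 and 15.001 ± 7.94 CPM. Ramp1, a partner of calcitonin family receptors, had 145, 203 and 306 counts in WT and 1, 53 and 128 in MUT, without overlap. All MUT libraries lay below all WT libraries for 2 of the 15 tested genes of this list and for 3.96% of all tested genes. The log2 fold change of Ramp1, the smallest p of the list, was -2.12 (SE 1.56, edgeR adjusted p 0.999875). It ran from -3.01 to -1.54 with 1 library left out, and was -3.04 with the replicate block and -3.40 with limma-voom.

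Enzyme genes of the exocrine pancreas, the other compartment of that organ, had a median biological coefficient of variation of 1.38 over the 10 tested, against 0.88 over all tested genes. The comparison was not matched for level. Of the 14 listed genes 5 had counts in all 6 libraries, and the tested receptor genes had a median of 1.52. Chymotrypsinogen (Ctrb1) averaged 183 ± 128 CPM over the WT and 83.6 ± 33.6 over the MUT libraries. Colipase (Clps) had 430, 155 and 240 counts in WT and 95, 2929 and 240 in MUT, so MUT library 2 alone set its MUT mean. The elastase gene Cela3b, the smallest p of the list, had 294, 694 and 66 counts in WT and 10, 44 and 57 in MUT, without overlap in CPM (log2 fold change -3.49, SE 1.34, edgeR adjusted p 0.999875; from -4.00 to -2.68 with 1 library left out, the latter without WT library 2). All MUT libraries lay below all WT libraries for 3.96% of all tested genes. Of 14 listed genes 10 were tested, 0 were called and 7 had fitted values below 0. Amy2a5 had 0 counts in every library. Reads of enzyme families with near-identical copies may have been split or dropped in the counting.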
